A study of Mus musculus with 77 samples.

Results

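This comparison set polysome-associated RNA of Stra8-Cre:RiboTag testes taken 24 h after retinoic acid (RA) against the same RNA at time 0. It rests on 4 of the series' 77 arrays, 2 for each time, which were chosen by their labelled line, fraction and time. All Stra8-Cre:RiboTag animals were FVB/N mice and had received BDAD, a blocker of RA synthesis, for 9 days. The time 0 group was killed after BDAD alone, and the 24 h group was injected with RA after BDAD and killed 24 h later. The polysome-associated fraction (IP below) was pulled down from whole testes through a ribosomal tag that Cre switches on, here under the Stra8 promoter. Beside it were used the 6 other times of the same IP, from 4 h to 8 days after RA (2 arrays for each time), and total testis RNA of the line at time 0 and 24 h (4 arrays for each). IP RNA of Amh-Cre:RiboTag FVB/N testes, where Cre is specific to Sertoli cells, was used at 0 and 24 h (2 arrays each), and Ngn3-Cre:RiboTag C57BL/6 testes gave a further germ cell reference, all after the same BDAD treatment. The title calls the cells neonatal, and no age in days is given. The labels do not say whether replicates are separate animals. The tests here gauge the variation among arrays of the same group, pooled over all 77 arrays, which may be technical. No group that was left without RA for the same time is used here, so RA, the injection, the added day of age and the end of BDAD cannot be told apart.

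Of the 3 marker genes of this comparison, Kit and Tbx1 were higher on both 24 h arrays than on both time 0 arrays, and Six4 was lower. The markers were chosen with earlier results of these data known, so their separation is a description and not a check. Among all genes tested, 29.9% lay without overlap above time 0 and 23.9% below it. Germ cell identity was checked on 19 measured genes of the germ cell and piRNA pathway, whose mean log2 intensity was 11.10 and 10.96 on the time 0 IP arrays and 11.04 and 10.90 on the 24 h IP arrays. In total testis RNA of the line that mean lay between 9.34 and 9.79 over the 8 arrays of time 0 and 24 h. The germ cell genes were thus higher in the IP than in whole testis at both times, on arrays whose replicates correlated across genes at r = 0.9943 (time 0) and 0.9947 (24 h).

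RA is made in the testis by aldehyde dehydrogenases and acts through nuclear receptors of the RAR and RXR families, which bind paired copies of a short DNA half-site. In the neonatal testis the first RA signal moves undifferentiated spermatogonia, which depend on GDNF from Sertoli cells, into differentiation. The cells then lose genes such as Zbtb16, Id4 and Nanos2, gain the receptor KIT, and turn on Stra8, which is needed later for meiosis. When RA synthesis is blocked, germ cells gather at the undifferentiated stage, and an RA injection sends them forward together.

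Differences below are log2 values, 24 h minus time 0 unless another pair is named, with their standard error (SE), and adjusted p-values are from limma's moderated test with Benjamini-Hochberg adjustment over all genes. At 24 h 42 genes were higher and 46 were lower than at time 0, at an adjusted p under 0.05 and a difference of at least 2-fold. These are 0.211% and 0.231% of the 19938 genes tested. "Rose" and "fell" below are used for genes that met both conditions. Without the fold condition 674 genes (3.38%) were higher and 616 (3.09%) lower, so most differences that passed the adjusted p were under 2-fold. All 88 genes had 24 h arrays that did not overlap the time 0 arrays. Among all genes tested, 29.9% lay without overlap above time 0 and 23.9% below it. Both time 0 arrays bore on the count: without time 0 replicate 1 the counts were 67 higher and 71 lower, and without time 0 replicate 2 they were 24 higher and 55 lower.

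**Figure D1:**
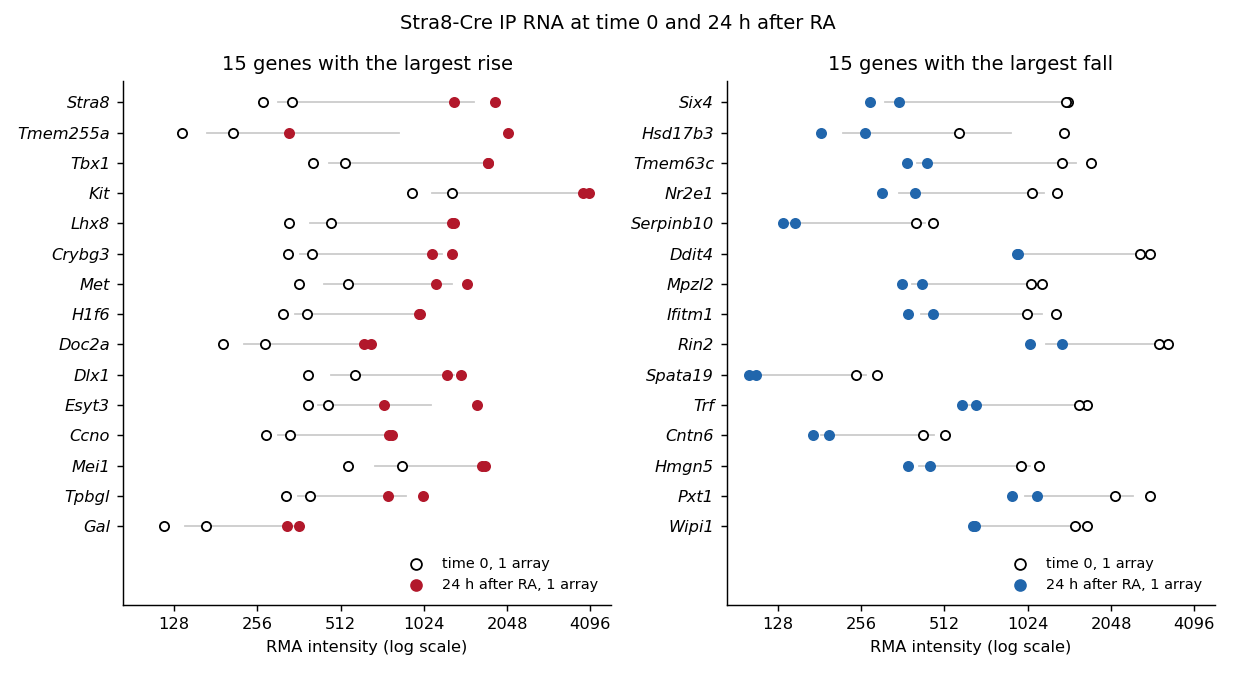
RMA intensity (log axis) of the 15 genes with the largest rise and the 15 with the largest fall in Stra8-Cre IP RNA; open points are the 2 arrays at time 0, filled points the 2 arrays at 24 h, and the line joins the means of the log values. In every row the filled points lie on one side of the open ones, and Tmem255a and Esyt3 stand out by the distance between their 24 h arrays.

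Stra8, the gene named for its response to RA, had the largest difference of all genes. Its intensity was 343 and 268 at time 0 and 1313 and 1848 at 24 h. Both 24 h arrays lay far above the higher time 0 array, with a mean rise of 5.13-fold and a log2 difference of 2.36 ± 0.38 (SE; adjusted p = 2.77e-05). The RefSeq window around its start, 250 bases before to 50 after (GRCm38.p6, chr6:34920698-34920997, plus strand), is shown because it holds 2 copies of AGGTCA, the half-site that RA receptors bind; capitals mark the matches, and the reference genome is not of the FVB/N strain.
Stra8: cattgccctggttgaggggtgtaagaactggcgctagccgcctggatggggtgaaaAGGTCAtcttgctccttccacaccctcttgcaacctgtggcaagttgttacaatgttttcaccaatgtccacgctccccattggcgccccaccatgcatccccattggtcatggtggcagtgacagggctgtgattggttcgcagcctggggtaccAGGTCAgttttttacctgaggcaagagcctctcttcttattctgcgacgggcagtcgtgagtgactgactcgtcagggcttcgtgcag
The other measured genes of the list of RA-induced targets and RA breakdown did not pass upward with Stra8. Of 17 measured members 1 rose, none fell, and the list's median log2 difference was 0.31 (0.19 to 0.33 over the settings tried), against 0.01 over all genes. Cyp26a1, the enzyme that breaks RA down, read 88.8 and 90.1 at time 0 and 131 and 244 at 24 h, and its difference of 1.00 ± 0.43 (SE) had an adjusted p of 0.186. Rarb, the receptor gene that RA itself induces, read 126 and 138 at time 0 and 217 and 227 at 24 h (log2 difference 0.76, adjusted p = 0.0623). Both lay without overlap above time 0, yet neither passed. At 4 h the same genes had been far higher: Cyp26a1 read 623 and 720.4 and Rarb 623 and 594, several times their 24 h values. Rec8, a meiotic cohesin, read 596 and 558 at time 0 and 691 and 739 at 24 h (log2 difference 0.31, adjusted p = 0.574). Hoxb4 was the only other member past the adjusted p, and it was lower (-0.36 ± 0.11, adjusted p = 0.0257). Tgm2 and Dhrs3, an RA-induced transglutaminase and a retinal reductase, differed between the 24 h arrays. Tgm2 read 383 and 347 at time 0 and 426 and 778 at 24 h, and Dhrs3 read 358 and 438 at time 0 and 406 and 947 at 24 h.

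Genes that make, carry and sense RA moved little. None of the 13 measured members rose or fell. Aldh1a2, an RA-synthesising dehydrogenase of germ cells, read 1382 and 1228 at time 0 and 1909 and 1983 at 24 h, and passed the adjusted p at under 2-fold (0.58 ± 0.13 SE, adjusted p = 0.00215). Rxrg, a nuclear receptor partner, was lower and passed in the same way (-0.38 ± 0.12 SE, adjusted p = 0.0435). Crabp1, the cytoplasmic RA-binding protein, was among the most intense genes named here at 6752 and 4855 at time 0 and 9295 and 9213 at 24 h, but its difference of 0.69 ± 0.31 (SE) did not pass (adjusted p = 0.219). The receptors Rara (-0.16), Rarg (-0.47), Rxra (0.21) and Rxrb (0.22) did not pass either. Rdh10, which feeds retinal to that pathway, differed between the 24 h arrays (584 and 1177).

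Kit, the receptor tyrosine kinase for stem cell factor, rose 3.6-fold. Its intensity was 1293 and 929.5 at time 0 and 3854 and 4047 at 24 h, and the log2 difference was 1.85 ± 0.29 (SE; adjusted p = 1.33e-05). The 2 arrays of a time were closer to each other than the times were, and no alternative setting took the call away. The first of its 2 RefSeq windows (GRCm38.p6, chr5:75574737-75575036, plus strand) is shown for contrast with Stra8, since neither of its windows holds any of the half-sites or E-boxes searched, and nothing is in capitals.
Kit: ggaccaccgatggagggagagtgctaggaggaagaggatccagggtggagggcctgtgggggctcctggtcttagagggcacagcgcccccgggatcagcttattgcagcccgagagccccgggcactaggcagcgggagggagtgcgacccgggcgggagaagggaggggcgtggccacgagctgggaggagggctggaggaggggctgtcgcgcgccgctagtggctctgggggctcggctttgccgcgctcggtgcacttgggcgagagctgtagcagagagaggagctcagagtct
Of 17 measured genes of differentiating spermatogonia Kit alone rose, and none fell, with a median log2 difference of 0.36. That median ranged from 0.07 without time 0 replicate 2 to 0.52 without time 0 replicate 1. Dnmt3b, a DNA methyltransferase that RA raises in spermatogonia, read 1398 and 1255 at time 0 and 2142 and 2227 at 24 h and passed at under 2-fold (0.72 ± 0.20 SE, adjusted p = 0.0193). Sohlh2, a bHLH factor of differentiation, read 1930.0 and 1468 at time 0 and 2769.7 and 2508 at 24 h; its difference of 0.65 had an adjusted p of 0.0909. Its partner Sohlh1 read 2479 and 1985 at time 0 and 2862 and 2813 at 24 h (0.36, adjusted p = 0.218). Both had 24 h arrays above both time 0 arrays, by less than the test needed. Dmrt1, which holds back meiosis in spermatogonia, was level at 4649.9 and 4049.7 at time 0 and 4663 and 4669.7 at 24 h. Prdm1, a transcriptional repressor, was the one member lower past the adjusted p (-0.45 ± 0.12 SE, adjusted p = 0.0176).

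Of the kinase pathway around KIT, 23 genes were measured and none rose or fell, with a median of 0.03, -0.03 to 0.08 over the settings tried. Socs2, an inhibitor of cytokine signalling, read 1749 and 2727 at time 0 and 989 and 1254 at 24 h and was just under 2-fold lower (-0.97 ± 0.18 SE, adjusted p = 0.000236). Pik3cd, a catalytic PI3-kinase subunit, was lower as well (-0.73 ± 0.14, adjusted p = 0.000357), while Fgfr3, a fibroblast growth factor receptor, read 349 and 289 at time 0 and 589 and 565 at 24 h and was higher (0.86 ± 0.15, adjusted p = 0.000122). The ligand gene of KIT, Kitl, which Sertoli cells make, did not pass (-0.19).

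Tbx1, a T-box transcription factor, rose 3.76-fold. It read 530.5 and 407 at time 0 and 1752 and 1742 at 24 h, with a log2 difference of 1.91 ± 0.36 (SE; adjusted p = 0.000358). The 24 h arrays were nearly equal, and both lay far above the higher time 0 array. Six4, a homeobox factor of the sine oculis family whose gene answers to GDNF in cultured spermatogonia, moved the other way: it read 1430.2 and 1407 at time 0 and 351 and 275 at 24 h, a 4.56-fold fall (-2.19 ± 0.19 SE, adjusted p = 3.43e-11), the largest fall among all genes. RefSeq windows of both are shown because these genes mark the comparison from its 2 sides. Each gene has 2 windows. The first of Tbx1 (GRCm38.p6, chr16:18588850-18589149, minus strand) is shown and held no match. Of Six4 the second is shown (chr12:73113376-73113675, minus strand), which held 1 GGGTCA, in capitals; its first window held none of the letters searched.
Tbx1: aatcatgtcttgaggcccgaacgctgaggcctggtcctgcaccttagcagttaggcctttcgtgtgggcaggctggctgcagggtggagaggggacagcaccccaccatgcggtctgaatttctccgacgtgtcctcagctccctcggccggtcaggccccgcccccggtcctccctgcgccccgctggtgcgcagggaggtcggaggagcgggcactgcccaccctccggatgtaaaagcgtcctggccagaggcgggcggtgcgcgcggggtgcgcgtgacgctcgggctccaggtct
Six4: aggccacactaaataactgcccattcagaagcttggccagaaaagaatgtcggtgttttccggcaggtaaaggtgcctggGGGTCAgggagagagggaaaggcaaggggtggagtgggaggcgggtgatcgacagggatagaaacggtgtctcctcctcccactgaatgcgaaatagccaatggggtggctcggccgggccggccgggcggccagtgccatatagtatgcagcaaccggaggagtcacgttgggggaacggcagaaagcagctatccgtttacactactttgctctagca
Tbx1 belongs to a list of 25 measured homeobox and T-box genes, of which 2 rose and 1 fell (median -0.12, -0.15 to -0.04 over the settings tried). Over all genes 0.211% rose and 0.231% fell. The list leaves out Six4, which is in the list of GDNF-responsive genes, and the homeobox genes Lhx8 and Nobox, described below. Dlx1, a distal-less homeobox factor, also rose, at 575 and 392 at time 0 and 1401 and 1245 at 24 h (1.48 ± 0.27 SE, adjusted p = 0.000239), and its relative Dlx2 passed at under 2-fold (0.63, adjusted p = 0.0202). Tbx20 fell, at 563 and 385 at time 0 and 258 and 205 at 24 h (-1.02 ± 0.19 SE, adjusted p = 0.000236), a call lost without time 0 replicate 1 or 24 h replicate 2. Tbx3, which supports self-renewal in stem cells, was just under the fold limit (-0.97 ± 0.13 SE, adjusted p = 6.78e-07). Hoxb2 was lower at under 2-fold (-0.52, adjusted p = 0.0349), and the other Hox genes measured, apart from Hoxb4 above, lay between -0.41 (Hoxc4) and 0.22 (Hoxa4) and did not pass.

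Lhx8, a LIM homeobox factor known from the oocyte, rose from 471 and 333 to 1313 and 1296 (1.72 ± 0.27 SE, adjusted p = 1.55e-05). Nobox, another oocyte homeobox gene, rose at lower intensity, with 253 and 162 at time 0 and 477 and 423 at 24 h (1.15 ± 0.29 SE, adjusted p = 0.00805). Lhx8 kept its call under every setting tried, and Nobox lost it when time 0 replicate 2 or 24 h replicate 1 was left out. Nr2e1, an orphan nuclear receptor that keeps neural stem cells undifferentiated, fell from 1301 and 1060.3 to 401 and 305 (-1.75 ± 0.20 SE, adjusted p = 2e-08).

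Genes that mark undifferentiated spermatogonia read mostly lower. Of 22 measured, 3 had a difference above 0, none rose, 2 fell, and 12 were lower at an adjusted p under 0.05 without the fold condition, against 3.09% of all genes; the median log2 difference was -0.50 and ranged from -0.57 to -0.44 over the settings tried. Ddit4, an inhibitor of the growth kinase complex mTORC1, fell with close replicates at both times: 2826 and 2596 at time 0 and 934 and 943 at 24 h (-1.53 ± 0.12 SE, adjusted p = 4.15e-13). Upp1, uridine phosphorylase, fell from 2787 and 2202 to 1229 and 863 (-1.27 ± 0.25 SE, adjusted p = 0.000638), a call lost without 24 h replicate 2. Between 1 and 0.75 on the log2 scale lay genes just short of 2-fold. Nanos3, an RNA-binding protein of germ cells, read 771 and 811 at time 0 and 455 and 365 at 24 h (-0.96, adjusted p = 1.33e-05). Foxc2, a marker of the quiescent stem cell, read 2435 and 2609 at time 0 and 1401 and 1278 at 24 h (-0.91, adjusted p = 0.00103). Pou5f1, the pluripotency factor Oct4, read 895 and 789.6 at time 0 and 502 and 419 at 24 h (-0.87, adjusted p = 0.00825). Id4, the helix-loop-helix inhibitor that marks the most primitive spermatogonia, read 1375 and 1186 at time 0 and 806 and 703 at 24 h (-0.76, adjusted p = 0.00155). In each of these the 24 h arrays lay below both time 0 arrays. Zbtb16, whose product PLZF is the classic marker of the undifferentiated pool, was only a little lower at 7671 and 7629 at time 0 and 5775 and 5778 at 24 h (-0.41 ± 0.12 SE, adjusted p = 0.0335), and Sall4 (-0.29), Foxo1 (-0.27) and Itga6 (-0.07) did not pass.

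The GDNF receptor and GDNF-responsive genes had the lowest median of the lists, at -0.65 over 17 measured members (-0.69 to -0.48 over the settings tried). Six4, a marker of the comparison, and Nefm fell, against 0.231% of all genes, and none rose. Without the fold condition 9 were lower, against 3.09% of all genes. Nefm, a neurofilament gene, read 533 and 398 at time 0 and 243 and 204 at 24 h (-1.05 ± 0.15 SE, adjusted p = 2.21e-06), and lost its call without time 0 replicate 1 or 24 h replicate 2. Ret, the GDNF signalling receptor, read 5149 and 5131 at time 0 and 3126 and 2914 at 24 h (-0.77 ± 0.18 SE, adjusted p = 0.0051), whereas its co-receptor Gfra1 at 4764 and 5235 at time 0 and 3745 and 3645 at 24 h did not pass (-0.43, adjusted p = 0.157). The feedback genes Spry4 (-0.75, adjusted p = 0.000914) and Dusp6 (-0.76, adjusted p = 0.0313) and the targets Egr2 (-0.93, adjusted p = 0.000198) and Lhx1 (-0.79, adjusted p = 0.000247) were lower at under 2-fold. Etv5, a self-renewal factor, read 2111 and 2242 at time 0 and 1338 and 1434 at 24 h and missed the threshold (-0.65, adjusted p = 0.0598). Pou3f1 went the opposite way, at 803 and 719.9 at time 0 and 1182 and 1022 at 24 h (0.53 ± 0.14 SE, adjusted p = 0.0153), and Bcl6b (-0.17), Etv4 (-0.17) and Mycn (0.07) did not pass. In bulk samples such as these, fewer cells of a type and less RNA per cell cannot be told apart.

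**Figure D2:**
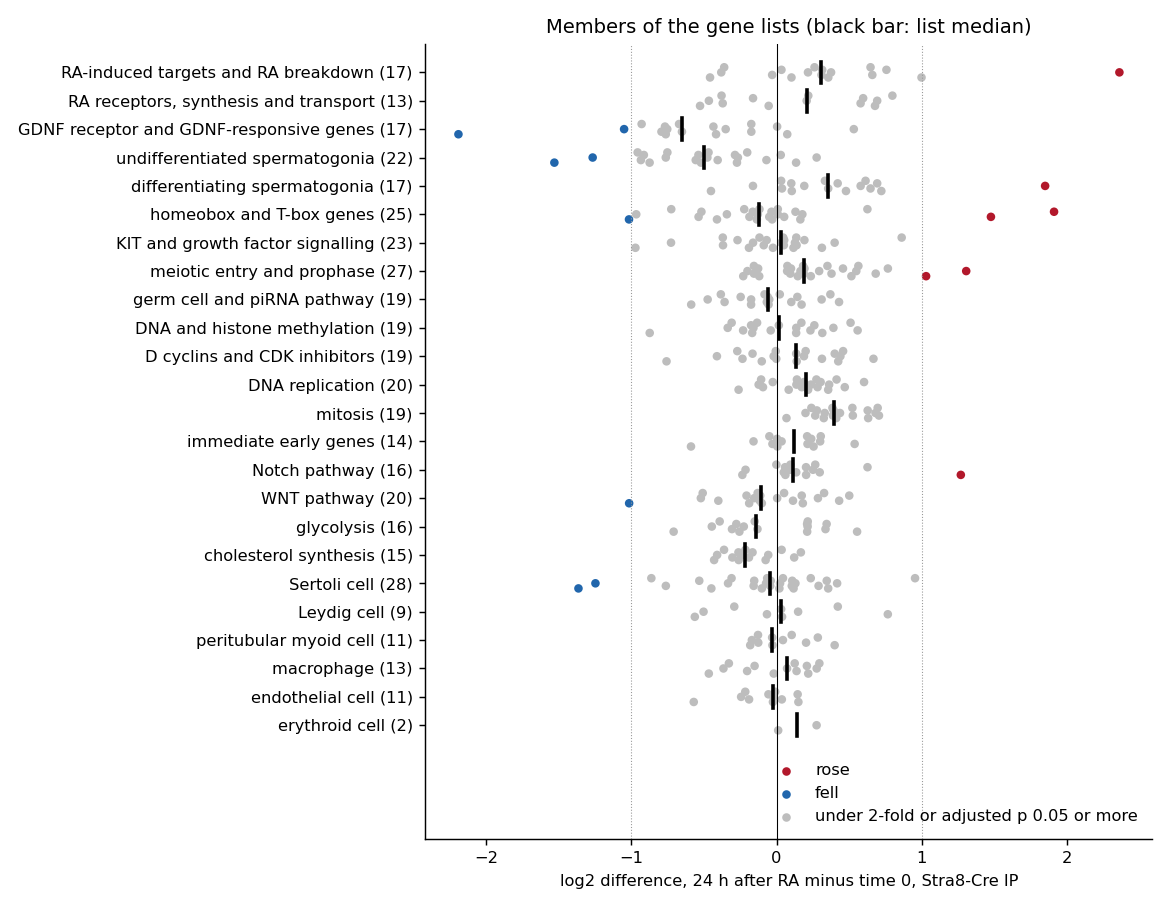
Log2 difference in Stra8-Cre IP RNA, 24 h minus time 0, for each measured member of the gene lists (number measured in brackets); red points rose, blue points fell, grey points were under 2-fold or missed the adjusted p, black bars are list medians and dotted lines mark 2-fold. The GDNF and undifferentiated lists lie mostly left of 0, with medians of -0.65 and -0.50, and all mitosis genes lie right of it.

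Meiotic genes mostly differed little, and few met both conditions. Of the 27 measured, 21 had a difference above 0, against 10592 of all 19938 genes, but 15 did without time 0 replicate 2. Without the fold condition 3 were higher, against 3.38% of all genes. Of 27 measured, 2 rose, against 0.211% of all genes, and none fell. The median was 0.19, from 0.02 without time 0 replicate 2 to 0.37 without 24 h replicate 2. Mei1, needed for the DNA breaks that start meiotic recombination, read 852 and 546 at time 0 and 1708 and 1665 at 24 h (1.31 ± 0.32 SE, adjusted p = 0.00625). Dmc1, the meiotic recombinase, read 655 and 504 at time 0 and 1119 and 1229 at 24 h (1.03 ± 0.31 SE, adjusted p = 0.0327). Both were higher on both 24 h arrays, and both calls were lost without 24 h replicate 1, 24 h replicate 2 or time 0 replicate 2, and that of Dmc1 also without time 0 replicate 1. With quantile normalization the difference of Dmc1 was 0.97, under 2-fold. The synaptonemal complex gene Sycp3 was level at 2100.1 and 1942 at time 0 and 2027 and 1689 at 24 h (-0.13), as was Sycp1 (-0.23). Outside the list, the testis linker histone H1f6 rose from 387 and 318 to 989.9 and 982 (1.49 ± 0.17 SE, adjusted p = 1.75e-08), and its call held in every setting tried. The 19 germ cell and piRNA genes showed no member that rose or fell (median -0.06, -0.13 to 0.01 over the settings tried); Ddx4, the germ cell RNA helicase, read 5552 and 5449 at time 0 and 5539.5 and 5019 at 24 h.

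Mitosis genes read slightly higher at 24 h. None of 19 measured rose or fell, but all 19 differences were above 0, against 53.1% of all genes. The median was 0.39 (0.36 to 0.46 over the settings tried). At under 2-fold 5 passed the adjusted p, where 3.38% of all genes were higher without the fold condition. When any 1 of the 4 arrays was left out, all 19 stayed above 0 and 0 or 1 passed. Mki67, the proliferation antigen, read 1611 and 1849.6 at time 0 and 2794 and 2742 at 24 h (0.68 ± 0.21 SE, adjusted p = 0.0393). Tpx2, a spindle protein, read 1695 and 1597 at time 0 and 2758 and 2577 at 24 h (0.70 ± 0.16 SE, adjusted p = 0.0039). Plk1, the mitotic kinase, read 3114 and 2859.6 at time 0 and 5114 and 4628 at 24 h, and its wider spread left it short (adjusted p = 0.106). DNA replication genes had a median of 0.20 (0.13 to 0.29 over the settings tried) with none of 20 that rose or fell. Among 19 D cyclins and CDK inhibitors none met both conditions. Cdkn1b, whose product p27 holds cells in G1, was lower at 1708 and 1661 at time 0 and 1006 and 987 at 24 h (-0.76 ± 0.09 SE, adjusted p = 2.31e-08), and Cdk6, the partner of D cyclins, was higher at 1525 and 1624 at time 0 and 2547 and 2451 at 24 h (0.67 ± 0.11 SE, adjusted p = 5.09e-05). Ccnd1 (0.46) and Ccnd2 (-0.16), the cyclins that RA is known to affect in spermatogonia, did not pass. Ccno, an atypical cyclin, rose, at 337 and 276 at time 0 and 764 and 786 at 24 h (1.35 ± 0.26 SE, adjusted p = 0.000519).

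Chromatin genes were level as a list, with none of 19 DNA and histone methylation genes that rose or fell. Dnmt3l, which guides methylation in early male germ cells, was lower at 649.5 and 442 at time 0 and 299 and 286 at 24 h (-0.87 ± 0.18 SE, adjusted p = 0.00121), opposite to Dnmt3b above. Ehmt1, a histone methyltransferase, was higher at under 2-fold (0.51 ± 0.13, adjusted p = 0.00937).

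Ligands and receptors supplied several of the genes that rose. Dll1, a Notch ligand, read 215 and 152 at time 0 and 563 and 338 at 24 h (1.27 ± 0.18 SE, adjusted p = 2.21e-06), the only 1 of 16 Notch pathway genes to rise or fall; its call was lost without 24 h replicate 1. Met, the receptor for hepatocyte growth factor, read 543 and 364 at time 0 and 1466 and 1135 at 24 h (1.54 ± 0.32 SE, adjusted p = 0.00095), a call lost without time 0 replicate 2. Ephb4, an ephrin receptor, read 446 and 447 at time 0 and 1047 and 1060.2 at 24 h (1.24 ± 0.14 SE, adjusted p = 3.12e-08), with near-equal replicates at both times. Gal, which encodes the peptide galanin, read 167 and 118 at time 0 and 361 and 327 at 24 h (1.29 ± 0.26 SE, adjusted p = 0.000846), and Prok2, a prokineticin, read 369 and 282 at time 0 and 748 and 713 at 24 h. Gal and Prok2 lost their calls without time 0 replicate 2. Vegfa, the vascular growth factor, only just met the fold limit and differed between its 24 h arrays (655 and 1132); its call was lost under 5 of the 12 settings, median centring and quantile normalization among them.

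Several others that rose are known from nerve cells or other tissues. Doc2a, a calcium sensor of vesicle release, read 274 and 192 at time 0 and 658 and 625 at 24 h (1.48 ± 0.21 SE, adjusted p = 2.15e-06). Slc17a7, a vesicular glutamate transporter, read 516 and 344 at time 0 and 925 and 908 at 24 h, and Slc6a2, the noradrenaline transporter, read 185 and 150.3 at time 0 and 366 and 323 at 24 h. Crybg3, a crystallin-domain protein, rose from 402 and 330.4 to 1289.7 and 1091 (1.70 ± 0.33 SE, adjusted p = 0.000483). These genes had low to middling intensities at time 0, and their arrays at the 2 times stayed apart. Slc17a7 and Slc6a2 lost their calls without time 0 replicate 2, and Slc6a2 also without 24 h replicate 1.

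Beside the undifferentiated-cell genes, the genes that fell included membrane, trafficking and immune-type genes. Tmem63c, an ion channel family member, fell from 1733 and 1356 to 444 and 374 (-1.91 ± 0.26 SE, adjusted p = 1.13e-06). Serpinb10, a protease inhibitor, fell from 465 and 406 to 148 and 134 (-1.62 ± 0.23 SE, adjusted p = 3.09e-06). Mpzl2, an adhesion protein, fell from 1053 and 1151 to 361 and 423 (-1.49 ± 0.23 SE, adjusted p = 1.79e-05). For all 3 genes both 24 h arrays lay far below the lower time 0 array. Ifitm1, an interferon-induced membrane protein expressed in early germ cells, fell from 1020.0 and 1300.1 to 379 and 465 (-1.46). Rin2, a Rab5 exchange factor, fell from 3296 and 3062 to 1360.4 and 1041 (-1.42), and Wipi1, an autophagy protein, from 1669 and 1513 to 660.1 and 647 (-1.28). Cntn6 (-1.35), Hmgn5 (-1.33), Pxt1 (-1.30) and Spata19 (-1.36) made up the rest of the 15 largest falls with Trf and Hsd17b3. Tcl1, a coactivator of AKT known from embryonic stem cells, fell as well (-1.18 ± 0.19), as did Fbxo32, a ubiquitin ligase gene that FOXO factors turn on (-1.02 ± 0.15), a call lost without time 0 replicate 1 or 24 h replicate 2. Tcf7l2, a transcription factor of WNT signalling, was the only one of 20 WNT pathway genes to rise or fall (-1.01 ± 0.11 SE, adjusted p = 1.36e-08); its call was lost without 24 h replicate 1 or time 0 replicate 2, which leaves none in the list.

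Metabolic lists held no gene that rose or fell. Their counts without the fold condition stand against 3.38% of all genes higher and 3.09% lower. Of 16 glycolysis genes 5 were lower and 1 higher at under 2-fold (median -0.14, -0.19 to -0.06 over the settings tried); Slc2a3, a glucose transporter, read 2056 and 1717 at time 0 and 1179 and 1121 at 24 h (-0.71 ± 0.18 SE, adjusted p = 0.0106), and Hk2, a hexokinase, was the one higher (0.55). Cholesterol synthesis genes had a median of -0.21 with 2 of 15 lower at under 2-fold. Immediate early genes, 14 measured, gave none that passed in either direction (median 0.12, 0.01 to 0.14 over the settings tried).

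Markers of somatic cells were measured beside these results. The Sertoli cell list, 28 genes, had a mean log2 intensity of 9.73 and 10.24 on the time 0 IP arrays and 9.49 and 10.25 on the 24 h IP arrays, against 11.27 to 11.45 in total RNA of the same 2 times. Sertoli genes were thus lower in the IP than in whole testis but not absent, and replicate 2 was the higher at both times. The list's median difference was -0.04, and it was -0.38 without 24 h replicate 2 and 0.34 without 24 h replicate 1. Nr0b1, a nuclear receptor gene of Sertoli cells, showed the gap between the 24 h arrays plainly, with 691 and 3113, and Amh read 699 and 1521 at time 0 and 345 and 932 at 24 h (adjusted p = 0.0862). No gene of the Leydig (9), peritubular myoid (11), macrophage (13), endothelial (11) or erythroid (2) lists rose or fell. Among the genes outside these lists that fell, Plvap, Fgd5 and Arhgef15 are known from endothelial cells. Plvap read 756 and 763 at time 0 and 341 and 359 at 24 h (-1.12 ± 0.11 SE, adjusted p = 2.22e-09) in the IP and 244, 307, 301 and 281 in total RNA at time 0. Fgd5 read 1234 and 1057 at time 0 and 562 and 538 at 24 h (-1.05 ± 0.16 SE, adjusted p = 1.33e-05), and Arhgef15 read 1099 and 948 at time 0 and 517 and 431 at 24 h (-1.11 ± 0.14 SE, adjusted p = 4.83e-07). The call of Fgd5 was lost without time 0 replicate 1 and that of Arhgef15 without 24 h replicate 2. The 11 endothelial markers had a median difference of -0.03, -0.16 to 0.04 over the settings tried, with none past the fold condition. Unlike the somatic markers above, Plvap, Fgd5 and Arhgef15 were higher in the IP than in total RNA at time 0. Mean log2 intensity of Fgd5 at time 0 was 10.16 in the IP and 8.47 in total RNA. For Arhgef15 these means were 9.9957 and 8.7011.

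Genes known from steroid synthesis and iron transport in somatic cells fell in the IP. Among them were Hsd17b1 and Trf, the 2 of 28 Sertoli list genes that fell, against 0.231% of all genes. Hsd17b1, an oestrogen-making hydroxysteroid dehydrogenase, read 556 and 891 at time 0 and 291 and 303 at 24 h (-1.25 ± 0.32 SE, adjusted p = 0.00896), and Hsd17b3, the enzyme that makes testosterone, read 577 and 1385 at time 0 and 183 and 264 at 24 h (-2.03 ± 0.41 SE, adjusted p = 0.000716). The 2 calls rest on few arrays: that of Hsd17b3 was lost without time 0 replicate 2, and that of Hsd17b1 without time 0 replicate 2 or either 24 h array. Both genes were more intense in total RNA at time 0 (Hsd17b1 3059.8, 2797, 3697 and 2958, Hsd17b3 2592, 2421, 3205 and 2446) and fell there too, with log2 differences of -2.57 for Hsd17b1 and -1.72 for Hsd17b3; Hsd17b1 also fell in Amh-Cre IP RNA (-1.72 ± 0.32 SE, adjusted p = 0.000374). Trf, transferrin, had the opposite profile. It read 1671 and 1564 at time 0 and 595 and 664 at 24 h in Stra8-Cre IP RNA (-1.36 ± 0.26 SE, adjusted p = 0.000357), but 637, 673, 706 and 661 in total RNA at time 0 and 896, 699, 651 and 672 at 24 h, so at time 0 it was higher in the IP than in whole testis. How far Sertoli cell RNA entered the differences of Hsd17b1 and Hsd17b3 was not tested.

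A small set that rose moved in the Amh-Cre IP as well, and in it Tmem255a and Esyt3 differed strongly between the 24 h arrays. Tmem255a, a membrane protein gene, read 137 and 209 at time 0 and 333 and 2066 at 24 h in Stra8-Cre IP RNA, 314 and 391 at time 0 and 2809 and 1817 at 24 h in Amh-Cre IP RNA, and from 416 to 456 rising to between 2152 and 5190.3 in total RNA. Its log2 difference was 2.30 ± 0.50 (SE; adjusted p = 0.00181) in the Stra8-Cre IP, 2.69 ± 0.50 (SE; adjusted p = 0.00043) in the Amh-Cre IP and 3.08 in total RNA. Without 24 h replicate 2 the first of these was 0.98 and did not pass. Esyt3, an extended synaptotagmin, was alike, with 24 h IP arrays at 738 and 1595 and log2 differences of 1.35, 1.89 and 2.35 in the same order. Tpbgl rose by 1.29, 2.17 and 2.20, and Tspan17 by 1.17 and 1.02 in the Stra8-Cre IP and total RNA (with 0.89 in the Amh-Cre IP, under 2-fold). All 4 calls were lost without 24 h replicate 2, the array with the higher Sertoli list. The 24 h arrays of Tpbgl were closer to each other, and its difference without that replicate was 1.09. The calls of Esyt3 and Tpbgl were also lost without time 0 replicate 2, and those of Tmem255a and Esyt3 in a fit on only the groups compared. The part of Sertoli cell RNA in these rises was not tested.

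The 24 h change was set against that in total RNA of the same line, on other arrays. Of the 42 genes that rose in the IP, 40 lay above 0 in total RNA, against 38.9% of all genes, 9 rose there too (0.176% of all genes did), and their median difference was 0.62. Of the 46 that fell, 1 lay above 0 in total RNA, 6 fell there (0.125% of all genes), and the median was -0.49. The named markers moved in the same direction by less. Kit in total RNA was 976, 763, 849 and 923 at time 0 and 1807, 1702, 1137 and 1256 at 24 h, Tbx1 314, 392, 451 and 299 and then 744, 717, 633 and 529.5, and Six4 392, 314, 331 and 315 and then 170.2, 189.8, 151 and 162. None of these groups overlapped between the times.

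**Figure D3:**
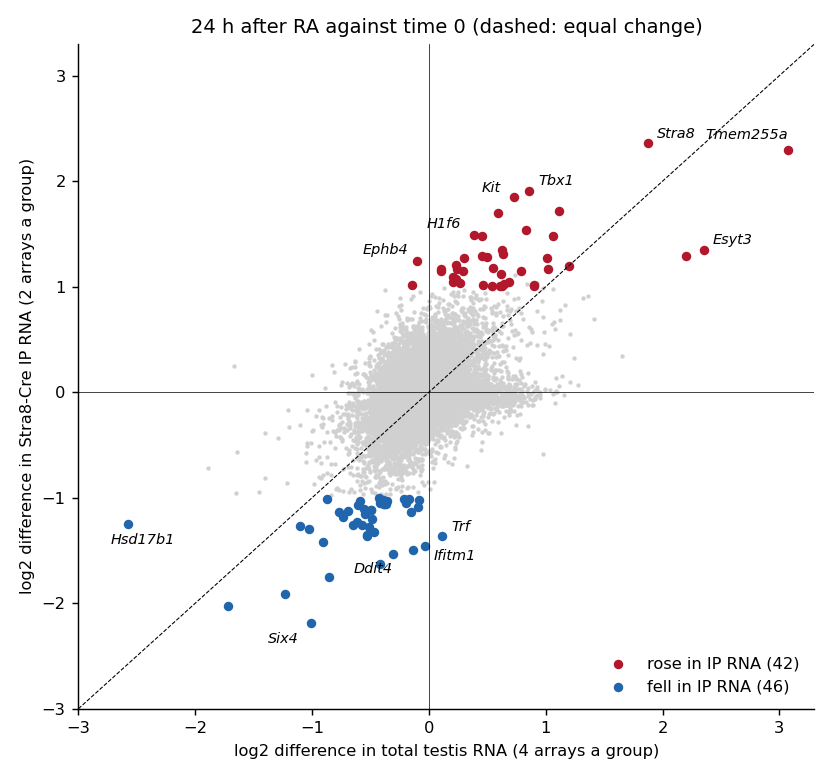
Log2 difference, 24 h minus time 0, of every gene in total testis RNA (x axis, 4 arrays a group) and in Stra8-Cre IP RNA (y axis, 2 arrays a group); red and blue points are the 42 genes that rose and the 46 that fell in the IP. Most coloured points lie between the y axis and the dashed line of equal change, while Tmem255a, Esyt3, Tpbgl, Slc27a2 and Hsd17b1 changed more in total RNA.

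The difference between the IP and total changes was itself tested. It was called toward the IP for 26 genes (0.13%) and away from it for 10 (0.0502%). Centring each array on its median moved the median of this difference over all genes by -0.11, and the split then became 8 and 18, so the direction of that split is not settled; the values below are without centring. Ddit4 fell in the IP but read 2145, 2210.4, 2210.3 and 2055 in total RNA at time 0 and 1886, 1979, 1643 and 1511 at 24 h, a difference of changes of -1.23 ± 0.14 (SE; adjusted p = 7.15e-07). Six4 fell further in the IP (-1.18 ± 0.24 SE, adjusted p = 0.00349), and Ifitm1 (-1.42 ± 0.26 SE, adjusted p = 0.00129), Trf (-1.48 ± 0.32 SE, adjusted p = 0.00686) and Mpzl2 (-1.35 ± 0.29 SE, adjusted p = 0.00582) fell in the IP with total RNA differences of -0.04, 0.11 and -0.14. Ephb4 rose in the IP with a total RNA difference of -0.10 (1.34 ± 0.17 SE, adjusted p = 4.17e-06, between the 2). Egfl6, a secreted protein gene, read 138 and 144 at time 0 and 288 and 263 at 24 h in the IP and was lower in total RNA (-0.38), for a difference of 1.34 ± 0.31 (SE; adjusted p = 0.0118). Emilin3 and Lpcat2 were called through total RNA, where they fell (-1.67 and -1.89), while the IP read 616 and 713 at time 0 and 768 and 809.9 at 24 h for Emilin3 and 896 and 1098 at time 0 and 576 and 627 at 24 h for Lpcat2. Iqgap3, a scaffold protein of dividing cells, read 565 and 601 at time 0 and 926 and 1069.6 at 24 h in the IP, for a difference of 1.21 ± 0.27 (SE; adjusted p = 0.00774), and Lpar3, a lysophosphatidic acid receptor, read 927 and 792 at time 0 and 526 and 619 at 24 h (-1.56 ± 0.29 SE, adjusted p = 0.00159, between the 2). Kit (1.12 ± 0.35 SE, adjusted p = 0.0882), Tbx1 (1.05 ± 0.45 SE, adjusted p = 0.251) and Stra8 (0.48 ± 0.47 SE, adjusted p = 0.667) did not pass this test.

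Against the Amh-Cre IP, cell cycle genes stood out. The difference between the 24 h changes of the Stra8-Cre IP and the Amh-Cre IP was called toward the Stra8-Cre IP for 134 genes (0.672%) and away from it for 44 (0.221%). Of the 19 mitosis genes 16 were called toward the Stra8-Cre IP, with a median difference of 1.45. Mki67 read 1611 and 1849.6 at time 0 and 2794 and 2742 at 24 h in the Stra8-Cre IP, and 2442 and 2119 at time 0 and 874 and 706 at 24 h in the Amh-Cre IP, a difference of changes of 2.21 ± 0.30 (SE; adjusted p = 1.95e-06). Plk1 read 2558 and 2316 and then 819.9 and 770.0 in the Amh-Cre IP (2.32 ± 0.37 SE, adjusted p = 4.81e-05, between the lines), and Prc1, a protein of the dividing spindle midzone, read 1249 and 1138 and then 420.4 and 368 (2.42 ± 0.28 SE, adjusted p = 8.07e-08). The histone gene H2ac4 (2.64 ± 0.53 SE, adjusted p = 0.00127) and Iqgap3 (2.49 ± 0.31 SE, adjusted p = 3.4e-07) had the largest differences of all in this direction. More of the mitosis gap lay on the Amh-Cre side, where 11 of the 19 fell and none rose (0.451% and 0.0853% of all genes), with a median of -1.07, against 0.39 in the Stra8-Cre IP. Of the 22 genes of the undifferentiated list 3, Ddit4, Id4 and Foxc2, were called away from the Stra8-Cre IP. Six4 (-1.72 ± 0.27 SE, adjusted p = 4.35e-05), Ddit4 (-1.66 ± 0.17 SE, adjusted p = 1.53e-09), Mpzl2 (-1.90 ± 0.33 SE, adjusted p = 0.000196), Hmgn5 (-1.72 ± 0.35 SE, adjusted p = 0.00177) and Lpar3 (-1.76 ± 0.34 SE, adjusted p = 0.000638) had the lower change in germ cell RNA, and Stra8 (1.87 ± 0.54 SE, adjusted p = 0.0388), Lhx8 (1.34 ± 0.38 SE, adjusted p = 0.0348) and H1f6 (1.51 ± 0.23 SE, adjusted p = 2.78e-05) the higher. Kit did not pass this test (0.75 ± 0.40 SE, adjusted p = 0.437); it also rose, at a fraction of the intensity, in the Amh-Cre IP (235 and 248 and then 550.0 and 486).

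**Figure D4:**
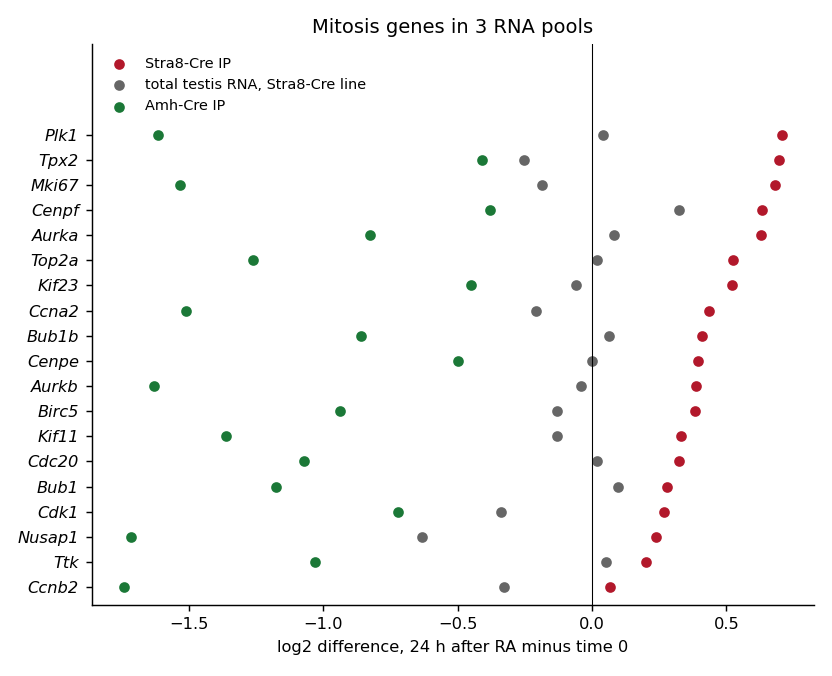
Log2 difference, 24 h minus time 0, of the 19 measured mitosis genes in Stra8-Cre IP RNA (red, 2 arrays a group), total testis RNA of the same line (grey, 4 arrays a group) and Amh-Cre IP RNA (green, 2 arrays a group). All red points lie above 0 and all green points below it, with medians of 0.39 and -1.07.

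The genes that changed at 24 h were placed on the other times of the Stra8-Cre IP; all these differences share the time 0 arrays. The 42 genes that rose had a median difference from time 0 of -0.01 at 4 h, 0.66 at 12 h, 1.19 at 24 h and 1.19 at 48 h, and of 0.83, 1.11 and 1.16 at 4, 6 and 8 days. The 46 that fell had medians of -0.17, -0.98, -1.14 and -1.10 at 4, 12, 24 and 48 h and of -0.97, -1.36 and -1.62 at 4, 6 and 8 days. At 12 h the median of the genes that fell was near its 24 h value, and that of the genes that rose was not.

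**Figure D5:**
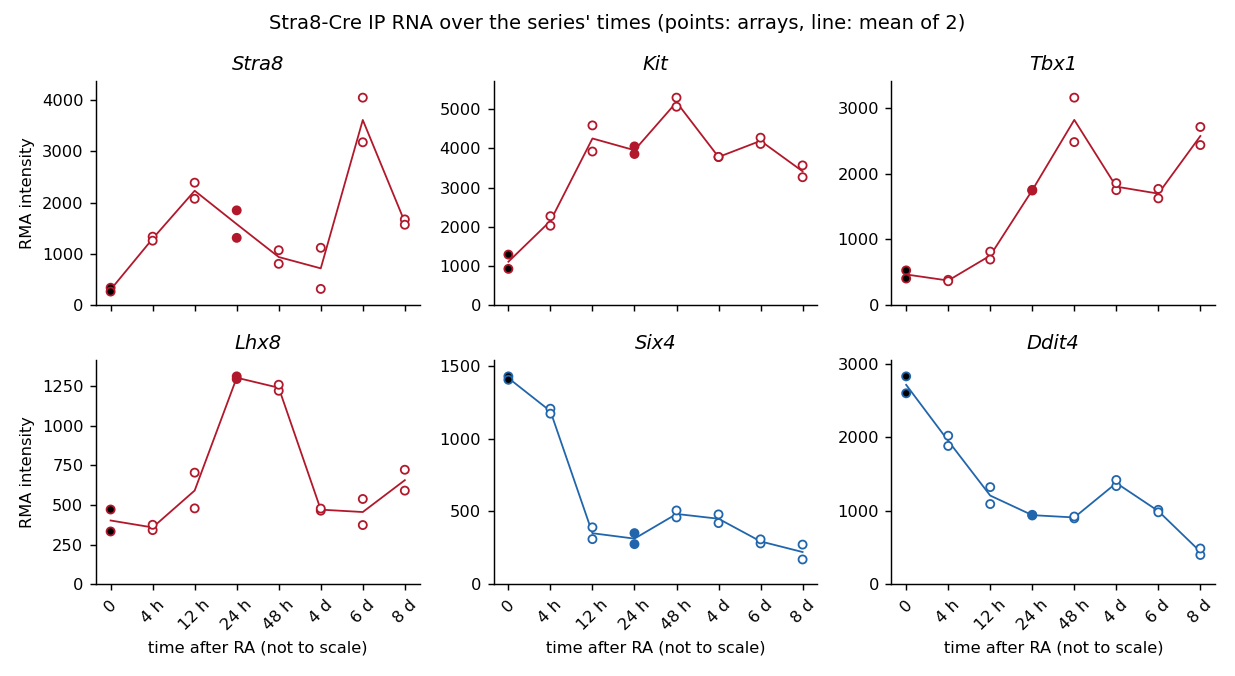
RMA intensity (linear axis from 0) of 6 genes in Stra8-Cre IP RNA at the 8 times of the series; points are arrays, lines join the means of 2 arrays, black points are time 0 and solid coloured points 24 h. Kit and Six4 had reached their 24 h levels by 12 h, Tbx1 and Lhx8 had not, and Stra8 was past its first peak at 24 h.

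Single genes show how the order differed. Kit read 2027 and 2271 at 4 h and 3917 and 4582 at 12 h, which overlaps its 24 h arrays. Six4 read 1208 and 1174 at 4 h and 391 and 309.8 at 12 h, so most of its fall lay between those times. Tbx1 read 816 and 695 at 12 h and 3151 and 2476 at 48 h, above both 24 h arrays. Stra8 had been higher at 12 h (2073 and 2386), was lower at 48 h (1072 and 808) and highest at 6 days (4039.9 and 3172). Lhx8 was highest at 24 and 48 h: its 12 h arrays read 704 and 479, its 48 h arrays 1222 and 1259.9 and its 4-day arrays 464 and 477. H1f6 was transient as well, with 661 and 624 at 12 h and 429 and 486 at 48 h, before higher values at 8 days (2105 and 1691).

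From 12 to 24 h 8 genes rose (0.0401%) and 18 fell (0.0903%). The genes with the largest rise were Crybg3 (1.28 ± 0.33 SE, adjusted p = 0.0243), Map7d3 (1.23 ± 0.27 SE, adjusted p = 0.0062), Cd63 (1.17 ± 0.19 SE, adjusted p = 0.000106), Lhx8 (1.17 ± 0.27 SE, adjusted p = 0.00839) and Dll1 (1.06 ± 0.18 SE, adjusted p = 0.000126). Crybg3 read 482 and 497 at 12 h, near its time 0 values. Map7d3 differed between the 24 h arrays (371 and 869), and the count of genes that rose was 21 without 24 h replicate 1 and 4 without 24 h replicate 2. Among the genes that fell, a set had peaked at 12 h. Scd1, a fatty acid desaturase, read 561 and 615 at time 0, 2233 and 2084 at 12 h and 765 and 815 at 24 h (-1.45 ± 0.41 SE, adjusted p = 0.0472, for the last step). Blvrb, biliverdin reductase B, read 455 and 520.3, 1555 and 1478 and 565 and 679.6 at the same times (-1.29 ± 0.16 SE, adjusted p = 8.16e-07), and Pgbd5, a transposase-derived gene, 550.1 and 541, 1679 and 1531 and 511.6 and 674 (-1.45 ± 0.18 SE, adjusted p = 1.17e-06). These 3 genes were thus back near time 0 at 24 h after a peak at 12 h. Pgbd5 and Blvrb were already high at 4 h, with mean log2 intensities of 10.56 and 10.29 there and 10.65 and 10.57 at 12 h. For Scd1 the means were 9.25 at 4 h and 11.08 at 12 h. Serpinb10 had no such peak of that size: it read 593 and 479.6 at 12 h and then fell (-1.92 ± 0.23 SE, adjusted p = 5.29e-07).

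Cholesterol synthesis genes were the list that moved most over this step. Of 15 measured, 4 fell and 14 were lower without the fold condition, against 1.03% of all genes, with a median of -0.84. Idi1, isopentenyl diphosphate isomerase, read 2186 and 2321 at time 0, 4077 and 4162 at 12 h and 1896 and 1475 at 24 h (-1.30 ± 0.20 SE, adjusted p = 5.48e-05, from 12 to 24 h). Mvk (-1.09 ± 0.11), Cyp51 (-1.07 ± 0.20) and Msmo1 (-1.00 ± 0.15), further enzymes of the pathway, fell with it. In the comparison with time 0 these genes had shown little (-0.23, -0.06 and -0.30). Rdh11, a retinal reductase of the RA list, also fell over the step (-1.16 ± 0.18), as did Pou5f1 (-1.05 ± 0.22).

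From 24 to 48 h no gene rose, with 41 higher (0.206%) without the fold condition, and 10 fell (0.0502%). H1f6 was among them (-1.11 ± 0.17 SE, adjusted p = 0.00012). Capn6, Defb36, Tnni3 and Sh3bp5, the others of the 5 with the largest fall, were all more intense in total RNA and differed between the 24 h arrays; Tnni3 read 1319.9 and 3215 at 24 h and 925 and 966 at 48 h, and 10464 and 10628 in the Amh-Cre IP at 24 h. Without 24 h replicate 1 the count of genes that fell was 79, and without 24 h replicate 2 it was 2. Sertoli list means were 9.49 and 10.25 on those 2 arrays, and the part of Sertoli cell RNA in this step was not tested.

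A second germ cell line placed these genes without using any of the 4 arrays. In Ngn3-Cre:RiboTag testes, IP RNA was compared with total RNA over time 0 and 4 h. Of the 42 genes that rose at 24 h, 16 were higher in the Ngn3-Cre IP (38.1%, against 6.18% of all genes) and 5 lower (11.9%, against 6.75%), with a median difference of 0.79. Of the 46 that fell, 25 were higher (54.3%) and 4 lower (8.7%), with a median of 1.13. Stra8 (1.41 ± 0.27 SE, adjusted p = 1.1e-05), Kit (1.20 ± 0.20 SE, adjusted p = 1.04e-06), Tbx1 (0.66 ± 0.26 SE, adjusted p = 0.0253) and Six4 (1.90 ± 0.14 SE, adjusted p = 6.16e-17) were all higher in that germ cell fraction, whereas Tmem255a was lower (-1.57 ± 0.35 SE, adjusted p = 0.000137).

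Letters of the RA receptor half-site were counted in the RefSeq windows, of which 38 of the 42 genes that rose, 35 of the 46 that fell and 15614 of all genes tested had at least 1. AGGTCA, on either strand, was in 21.1% of the genes that rose, 22.9% of those that fell and 16.3% of all. GGGTCA was in 28.9%, 20% and 15.6%, and AGTTCA in 13.2%, 17.1% and 13.9%, in the same order. A pair of half-sites on one strand spaced by 5 bases was in none of the genes that rose or fell and in 0.0512% of all. A pair spaced by 2 bases was found in 1 gene that rose, Ano1, a chloride channel (2.63%, against 0.0769% of all). The E-box CACGTG was in 15.8%, 8.57% and 9.5%, and CATATG, a related E-box, in 0%, 5.71% and 3.28%. These shares describe letters in a 300-base window, and no test was made of them.

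The genes whose course over the 8 Stra8-Cre IP times was most like that of the 3 markers were taken from 3361 genes whose group means spanned at least 2-fold. For Kit they were Lonrf1 (Pearson r = 0.9577 across 8 time means), Gadd45b (0.9448), a growth arrest gene that rose at 24 h (a call lost with median centring or without time 0 replicate 2), and Gmnn (0.9402), the replication inhibitor geminin. For Tbx1 they were Ap5b1 (0.982), Ovol1 (0.9622) and Llgl2 (0.9529). For Six4 they were Fgd5 (0.983), Fli1 (0.9825) and Arhgef15 (0.9807), of which Fgd5 and Arhgef15 also fell at 24 h, Fgd5 from 1234 and 1057 to 562 and 538 and Arhgef15 from 1099 and 948 to 517 and 431. The points of each pair share the same arrays, so these values describe likeness of course only.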

How the data were processed

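RNA of the whole testis and of the Cre-tagged polysome fraction was measured on Affymetrix arrays. The deposited values are RMA intensities on a linear scale, per the submitters' processing notes and the values; RMA's settings and version were not given in the sources used. Array medians ranged from 252.64 to 300.51, and the number of arrays limits the precision. Of 28853 probe sets 23410 were listed with a gene, 1621 of them with several, which stayed unnamed; 99.58% matched RefSeq by gene number. The probe set with the highest mean stood for each of 999 genes with several, which left 19938 genes.

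Log2 intensities of all 77 arrays were fitted with limma 3.58.1 (R 4.3.3) with a mean for each of 35 groups and empirical Bayes with an intensity trend, with no covariate; the procedure was tested on simulated data. A gene was called at a Benjamini-Hochberg adjusted p under 0.05 over all genes and a difference of at least 2-fold. Promoter windows are RefSeq's, GRCm38.p6. The alternatives were median centring, quantile normalization, leaving out the 30% of genes with the lowest signal, no fold minimum, averaged probe sets, only the groups compared, a replicate block and leaving out each array.

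The comparison, its marker genes and the gene lists were chosen with earlier results of these data known. Genes are named by rule: the 15 called genes with the largest difference each way (5 in the steps and differences), called members of lists and the 3 members of each list with the largest difference, besides fixed markers. That rule is the one the calculations used but was not written into the recorded design, and further genes were named after their values were seen.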

Additional observations from a re-analysis of the deposited data

Results flagged for a closer look

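The 24 h difference of 8 of the 30 genes with the largest rise or fall in the Stra8-Cre IP differed from that in total testis RNA of the same line by a limma interaction test (adjusted p under 0.05 and at least 2-fold). Over all genes 0.181% were called. The 30 genes were picked by the IP difference that this test contains, which favours calls among them. H1f6 (1.10) and Doc2a (1.03) had the higher change in the IP, as differences of log2 changes. Centring each array on its median moved these differences by -0.11, which puts both genes under 2-fold. The count of all genes called toward the IP then went from 26 to 8. Six4 (-1.18), Serpinb10 (-1.21), Ddit4 (-1.23), Mpzl2 (-1.355), Ifitm1 (-1.42) and Trf (-1.48) had the lower.

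Against the Amh-Cre IP the same test gave 16 of the genes picked in this way, with 0.893% called over all genes and the same limit. Stra8 (1.87), H1f6 (1.51), Doc2a (1.46), Lhx8 (1.34) and Gal (1.27) had the higher change in the Stra8-Cre IP. Six4 (-1.72), Tmem63c (-1.45), Serpinb10 (-1.55), Ddit4 (-1.66), Mpzl2 (-1.90), Ifitm1 (-1.39), Rin2 (-1.05), Spata19 (-1.25), Trf (-1.60), Hmgn5 (-1.72) and Wipi1 (-1.32) had the lower. Dixon's criterion was applied gene by gene, and only to total testis RNA of the Stra8-Cre line, whose groups hold 4 arrays. No single array stood apart in the 40 sets of 4 values examined, each from 1 gene in 1 group. The IP groups hold fewer arrays, so their arrays were not examined in this way.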

How the results depend on the processing

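Without the fold minimum the counts higher and lower were 674 and 616 for 24 h against time 0, 225 and 206 for 24 h against 12 h, 41 and 218 for 48 h against 24 h, 806 and 2010 in total RNA, 269 and 64 for the IP change minus the total change, and 350 and 253 for the IP change minus the Amh-Cre IP change. Median centring gave 2 and 6 for 48 h against 24 h, 16 lower in total RNA, 8 and 18 for IP minus total, and 84 lower for IP minus Amh-Cre IP. Quantile normalization gave 1 higher for 48 h against 24 h, 60 higher in total RNA, and 16 and 18 for IP minus total. A fit on only the groups compared gave 0 lower for 48 h against 24 h, 21 higher in total RNA, and 2 and 5 for IP minus total. Leaving out 1 array at a time, with a lone array assumed to vary like the other groups, gave 24 to 67 higher and 45 to 71 lower for 24 h against time 0, 4 to 21 and 15 to 30 for 24 h against 12 h, 0 to 1 and 2 to 79 for 48 h against 24 h, 31 to 101 and 19 to 34 in total RNA, 13 to 41 and 8 to 21 for IP minus total, and 109 to 147 and 29 to 54 for IP minus Amh-Cre IP. The cause of these shifts was not tested. Of the 88 genes called at 24 h, 35 kept the call under every setting in which they were tested. The other 53 lost it under at least 1, and none changed direction. Each gene had 12 settings, or 11 where leaving out low-signal genes removed it. The setting without a fold minimum can only add calls. Stra8, Kit, Tbx1, Lhx8, Six4, Nr2e1 and Ddit4 were among the 35. Same-numbered arrays of 24 h and time 0 deviated together, with a correlation of 0.489 (0.0056 for 24 h against 12 h). Over the whole course the replicate numbers did not pair the samples: of 28 pairs of Stra8-Cre IP times, same-numbered arrays deviated together (correlation over 0.1) in 8 and apart (under -0.1) in 7. With the replicate number as a block the counts for 24 h against time 0 were 42 higher and 46 lower. That block is shared by all 8 times of the Stra8-Cre IP, so it cannot show what a pairing of 24 h and time 0 alone would change. For 48 h against 24 h, where the same-number correlation was -0.2163, a crossed block, chosen after seeing the data, gave 0 higher and 11 lower.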

Other observations

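Further genes among the 88 were signalling and membrane genes not described above. Phlpp1, a phosphatase that acts on AKT, rose from 278 and 266 to 620.5 and 604 (1.17 ± 0.25 SE, adjusted p = 0.00169). Ebf3, a transcription factor of the early B-cell factor family, rose from 438 and 337 to 912 and 798 (1.15 ± 0.28 SE, adjusted p = 0.00637), and Gnai1, an inhibitory G protein subunit, from 440.3 and 403 to 871 and 856 (1.04 ± 0.22 SE, adjusted p = 0.00162). In all 3 genes both 24 h arrays were above both time 0 arrays, but the calls of Ebf3 and Gnai1 were lost without time 0 replicate 2, and that of Ebf3 also without 24 h replicate 1. Bmp4, a bone morphogenetic protein ligand, fell from 857 and 1235 to 535 and 455 (-1.06 ± 0.17 SE, adjusted p = 2.81e-05), and Adcy10, the soluble adenylyl cyclase, from 472 and 425 to 236 and 183 (-1.11 ± 0.16 SE, adjusted p = 4.85e-06). Oasl2, an interferon-induced gene, fell from 2857 and 2830.5 to 1479 and 1302 (-1.03 ± 0.22 SE, adjusted p = 0.00171), as Ifitm1 did. The calls of Bmp4, Adcy10 and Oasl2 were lost without 24 h replicate 2, and that of Bmp4 also without time 0 replicate 2.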
